A study of Mus musculus with 18 samples.

Results

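The 44 genes described here act in the G2 and M phases of the cell cycle, from the entry into mitosis to the division of the cell. They were chosen by gene name, with earlier results of these data known, and make up 44 of the 57180 genes in the deposited table. All 44 were found in it, and all 44 passed the filter on low counts. RNA was sequenced from smooth muscle cells cultured from the thoracic aorta of C57BL/6 mice, in 6 groups of 3 libraries. Cells received a scramble siRNA or an siRNA against Itgav, the gene of integrin αV, and then had no stimulus, TGF-β or PDGF-BB. The 6 groups were thus scramble unstimulated, Itgav siRNA unstimulated, scramble with TGF-β, Itgav siRNA with TGF-β, scramble with PDGF-BB and Itgav siRNA with PDGF-BB. Every group had been through a transfection, so no library shows untransfected cells. The sources used here give no doses, times or siRNA sequences, and the labels do not say whether the 3 libraries of a group were separate cultures. P-values therefore measure the spread between libraries, which may be technical.

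Mitosis begins when the kinase CDK1, bound to cyclin A or B and freed of inhibitory phosphates by CDC25 phosphatases, phosphorylates proteins across the cell. Aurora and Polo-like kinases, kinesin motors and microtubule-bundling proteins then build the spindle, kinetochores tie chromosomes to it, and the checkpoint proteins hold back the anaphase-promoting complex (APC/C) until every chromosome is attached. CDC20 with the APC/C ends mitosis by marking cyclin B and securin for destruction, and a contractile ring divides the cell. Most of these genes are transcribed late in the cycle, and in cultured vascular smooth muscle their RNA is widely read as a sign of proliferation. TGF-β is known as a growth inhibitor of many cell types, and PDGF-BB as a mitogen of smooth muscle.

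The genes fall into 9 roles. Mitotic entry has Cdk1, the cyclins Ccna2, Ccnb1 and Ccnb2, the phosphatases Cdc25b and Cdc25c, and Foxm1, a transcription factor of G2 genes. Mitotic exit has Cdc20, the APC/C activator, and Ube2c, its ubiquitin-conjugating enzyme. Spindle assembly has the kinases Plk1 and Aurka, the Aurora A activator Tpx2, and the microtubule-associated Nusap1, Prc1 and Hmmr. The checkpoint has Bub1, Bub1b, Bub3, Mad2l1 and Ttk. The kinesins are Kif11, Kif20a, Kif20b, Kif23, Kif2c, Kif4 and Kif15. The chromosomal passenger complex, which corrects faulty attachments, has Aurkb, Birc5, Incenp and Cdca8. Centromere and kinetochore genes are Cenpa, Cenpe, Cenpf, Ndc80 and Nuf2, cytokinesis genes are Anln, Ect2 and Racgap1, and genes of chromosome structure are Mki67, Top2a, Ncapg, Smc2 and Smc4. They lie on 16 chromosomes.

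The promoters of mitotic genes are known for a cell cycle homology region (CHR), the site of the MuvB complexes that repress these genes in resting cells and activate them in G2, often together with CCAAT boxes bound by NF-Y. Both motifs were looked for in the RefSeq promoter windows of build GRCm38.p6, which run from 250 bases before to 50 after each annotated start and held 36 of the 44 genes. The CHR, searched as TTTGAA or TTCGAA on either strand, was in the windows of 30 of the 36 (83.3%), against 21.7% of all 27025 genes with a window. Between 100 bases before and 50 after the start it was held by 29 of the 36 (80.6%), against 9.87% of all genes. CCAAT, on either strand, was held by 27 (75%) against 41.1%, and both motifs together by 25 (69.4%) against 8.61%. A CHR match can overlap a CCAAT match by at most 1 letter. A match describes the letters of the window and does not show binding.

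Of the genes with both motifs upstream of the start, the 6 with the smallest edgeR p with TGF-β in scramble cells are printed. That comparison is given further on. Each stretch lies upstream of the RefSeq start, 5′ to 3′ on the gene's strand, with every CHR and CCAAT match in capitals. TTCAAA and ATTGG are the same motifs on the other strand, and CCAATTGG is an overlapping pair.
Cdc20, chr4:118437344-118437406, minus strand: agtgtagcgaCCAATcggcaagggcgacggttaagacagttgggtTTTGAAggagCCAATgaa
Mki67, chr7:135716380-135716577, minus strand: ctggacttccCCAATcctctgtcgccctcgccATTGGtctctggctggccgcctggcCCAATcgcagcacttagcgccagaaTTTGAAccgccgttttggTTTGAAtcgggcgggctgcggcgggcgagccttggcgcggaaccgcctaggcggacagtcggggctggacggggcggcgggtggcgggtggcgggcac
Cdk1, chr10:69352913-69353130, minus strand: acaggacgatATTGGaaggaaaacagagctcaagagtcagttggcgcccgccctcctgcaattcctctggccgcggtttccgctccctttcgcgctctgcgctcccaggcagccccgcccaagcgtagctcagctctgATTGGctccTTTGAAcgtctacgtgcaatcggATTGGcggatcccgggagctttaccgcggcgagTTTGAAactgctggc
Prc1, chr7:80294404-80294475, plus strand: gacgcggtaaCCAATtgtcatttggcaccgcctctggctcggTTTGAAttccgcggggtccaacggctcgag
Ube2c, chr2:164769691-164769928, plus strand: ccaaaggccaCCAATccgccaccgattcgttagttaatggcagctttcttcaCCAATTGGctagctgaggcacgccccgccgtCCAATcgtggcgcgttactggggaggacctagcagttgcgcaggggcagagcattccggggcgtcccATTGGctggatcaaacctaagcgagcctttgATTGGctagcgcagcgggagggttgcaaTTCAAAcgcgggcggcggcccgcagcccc
Bub1b, chr2:118598013-118598210, plus strand: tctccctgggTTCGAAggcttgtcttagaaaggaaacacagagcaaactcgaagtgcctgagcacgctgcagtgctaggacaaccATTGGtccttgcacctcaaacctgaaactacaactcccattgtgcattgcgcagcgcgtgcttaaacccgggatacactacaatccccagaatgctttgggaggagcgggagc
In Cdc20 the CHR lay 18 bases before the start between a pair of CCAAT boxes, and in Prc1 it lay 30 bases before it, downstream of a single CCAAT box. Prc1 has another RefSeq start as well, from which the same CHR lay at -5 and ran across the start. Cdk1 and Mki67 each held a pair of CHR matches and 3 CCAAT boxes in the stretch shown. The Ube2c CHR stood on the opposite strand, and the upstream match of Bub1b was the TTCGAA form, 188 bases before the start. Bub1b also held a TTTGAA 41 bases after the start, outside the stretch shown. Bub3, whose RNA moved least of all 44 with TGF-β, also held a CHR and CCAAT boxes in its window. Among the 36 genes the median log2 fold change with TGF-β in scramble cells, given further on, was -1.24 in the 30 with a CHR and -1.30 in the 6 without one. Of 29 genes of DNA replication with a window, 20.7% held a CHR, and of 52 other mitotic genes 69.2% did.

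Deposited counts totalled 17705072 to 21592916 per library, and 15832 genes were tested with edgeR's quasi-likelihood test, a gene being called at a Benjamini-Hochberg adjusted p under 0.05. Levels are given in CPM, a gene's share of the tested counts of its library after TMM scaling. Itgav stood at 4.77%, 5.16% and 7.12% of its scramble level in the siRNA groups without stimulus, with TGF-β and with PDGF-BB. All 10 smooth muscle markers were detected, and their summed level was 4440 to 4690 CPM in scramble unstimulated, 2720 to 2870 in siRNA unstimulated, 11800 to 12100 in scramble TGF-β, 6340 to 6440 in siRNA TGF-β, 2260 to 2420 in scramble PDGF-BB and 1360 to 1470 CPM in siRNA PDGF-BB libraries. Fibroblast markers summed to 568 to 608, 697 to 768, 166 to 180, 152 to 160, 685 to 698 and 710 to 855 CPM in the same order. Mesothelial markers summed to 155 to 166, 90.5 to 93.2, 62.1 to 64.6, 25.3 to 31.1, 194 to 219 and 81.5 to 90.0 CPM. Endothelial markers summed to between 70.1 and 119 CPM, macrophage markers to between 7.35 and 20.6 CPM with 4 of 8 too low to test, and lymphocyte markers to at most 3.21 CPM with Cd3e and Cd3g at 0 in all 18 libraries. The summed fibroblast and mesothelial markers were lower in every TGF-β library than in every unstimulated one, but the single markers were mixed. With TGF-β in scramble cells 7 of 10 fibroblast markers fell, Pi16 and Serpinf1 rose (325% and 185% of the unstimulated level) and 1 did not pass, and 4 of 6 mesothelial markers fell and 2 did not pass. In siRNA cells 6 fibroblast markers fell and 3 rose (Dpt, Lum and Serpinf1), and 3 mesothelial markers fell and 1 rose (Wt1). Single smooth muscle markers were mixed as well. With TGF-β in scramble cells Des and Mylk fell (27.2% and 59.4% of the unstimulated level) and the others rose. With TGF-β in siRNA cells Des, Mylk, Myh11 and Lmod1 fell (17.7%, 34.8%, 39.9% and 59.9%) and the others rose. PDGF-BB in scramble cells raised Des and Mylk (185% and 116%) and lowered the others. Endothelial and macrophage markers moved in both directions too. With TGF-β in scramble cells Erg rose (646%), Kdr, Tie1, Egfl7, Esam and Cldn5 fell (59.9%, 63.1%, 36.9%, 48.5% and 31.9%) and the other endothelial markers did not pass. Ptprc rose there (359%), and Cd68, Csf1r and Lyz2 fell (57.8%, 59.2% and 45.4%). PDGF-BB raised Cd68 and Csf1r in scramble cells (449% and 146%) and lowered Lyz2 (60.7%), and Ptprc did not pass. The part of all these markers in the values that follow was not tested. In bulk RNA, fewer cells in mitosis and less RNA per mitotic cell cannot be told apart.

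Together the 44 genes held 0.221% to 0.235% of the TMM-scaled counts in scramble unstimulated libraries, 0.158% to 0.184% in siRNA unstimulated, 0.0986% to 0.107% in scramble TGF-β, 0.102% to 0.104% in siRNA TGF-β, 0.182% to 0.191% in scramble PDGF-BB and 0.150% to 0.158% in siRNA PDGF-BB libraries. Both TGF-β groups lay below all other groups. Of the 44 genes, 41 had their highest group mean in scramble unstimulated cells. The exceptions were Cdc25b, highest with Itgav siRNA and PDGF-BB, and Bub3 and Ncapg, highest with scramble and PDGF-BB. The lowest mean was in scramble TGF-β cells for 24 genes and in siRNA TGF-β cells for 20. Per kilobase of exon, levels in scramble unstimulated cells ran from 1.27 CPM for Kif15 through a median of 7.51 to 27.9 CPM for Cdc20, followed by Ube2c at 20.3, Tpx2 at 19.5 and Smc4 at 19.1 CPM per kilobase. The length used was that of all annotated exons of a gene merged, not of its main transcript. This order of genes therefore depends in part on the isoforms annotated.

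**Figure D1:**
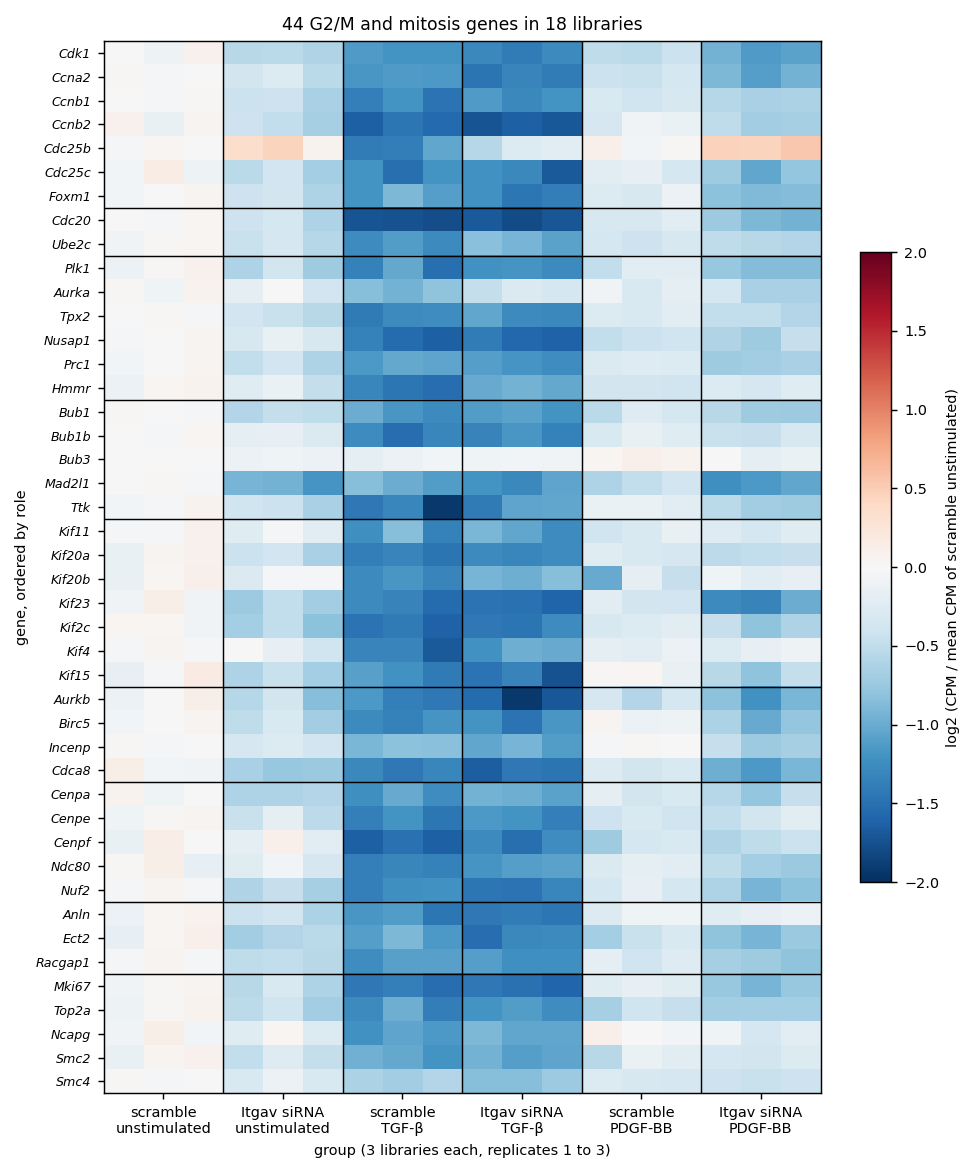
Heat map of the 44 genes (vertical axis, ordered by role, black lines between roles) in the 18 libraries (horizontal axis, 3 per group), coloured by log2 of CPM over the gene's mean in scramble unstimulated cells. Both TGF-β groups are blue in nearly every gene, Bub3 is close to white throughout, and Cdc25b is red in the siRNA groups without stimulus and with PDGF-BB.

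The first comparison asked how TGF-β changed the mitotic genes in scramble cells. All 44 were lower and passed the test, in a comparison in which 48.3% of all genes tested were called and 24.8% were called lower. The median log2 fold change of the 44 was -1.26, which leaves 41.6% of the unstimulated level, against -0.01 over all genes tested. Of the 44, 39 fell at least 2-fold. In all 44 the 3 TGF-β libraries lay below the 3 unstimulated ones, which was so for 28% of all genes, with 55% of them separated in either direction. For 43 genes the adjusted p in edgeR was at most 2.2e-07, the exception being Bub3.

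Both genes of mitotic exit fell, by unequal amounts. Cdc20, the APC/C activator that is held by the checkpoint, stood at 52.1, 50.7 and 53.6 CPM in unstimulated and at 15.7, 15.6 and 15.2 CPM in TGF-β libraries. This is the largest fall among the 44 (log2 fold change -1.75 ± 0.073 SE, edgeR adjusted p = 8e-15), to 29.8% of the unstimulated mean, with no overlap between the groups. Ube2c, the enzyme that starts ubiquitin chains for the APC/C, went from 50.1, 53.8 and 54.1 to 21.9, 24.4 and 21.8 CPM (-1.21 ± 0.070), a smaller fall than the median of the 44. All 7 genes of mitotic entry fell, with a median of -1.26. Cdk1, the kinase of mitotic entry, stood at 81.8, 75.3 and 86.4 CPM without and at 37.0, 35.5 and 35.6 CPM with TGF-β (-1.17 ± 0.060). The B cyclins fell as well, with log2 fold changes of -1.34 ± 0.070 for Ccnb1 and -1.54 ± 0.095 for Ccnb2, and Cdc25b went from 14, 14.9 and 14.5 to 5.51, 5.54 and 7.06 CPM (-1.26 ± 0.12).

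All 6 genes of spindle assembly fell (median -1.29). Tpx2, which activates Aurora A on microtubules, stood at 91.1, 92.9 and 90.2 CPM without and at 34.2, 38.0 and 38.6 CPM with TGF-β (-1.31 ± 0.064, edgeR adjusted p = 1.2e-13). Prc1, which bundles the microtubules of the central spindle, went from 97.3, 101 and 104 to 45.6, 49.6 and 48.7 CPM, and Aurka had the smallest fall of the 6 (-0.87 ± 0.10). The 7 kinesins had a median of -1.38. Kif20a, a motor of the central spindle, stood at 70.3, 80.7 and 82.3 against 29.7, 31.3 and 28.4 CPM. Among the 5 kinetochore genes (median -1.33) Cenpe, a kinesin that carries chromosomes to the spindle equator, went from 73.0, 78.7 and 80.7 to 29.9, 33.6 and 28.6 CPM. The 4 passenger complex genes had a median of -1.29, and Incenp, its scaffold, had the smallest fall of the 4, from 43.5, 42.2 and 42.8 to 22.7, 24.2 and 24.0 CPM (-0.86 ± 0.067).

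Genes of cytokinesis had a median of -1.14, and Anln, the actin-binding protein anillin of the contractile ring, went from 134, 149 and 154 to 65.3, 67.4 and 53.7 CPM. Among genes of chromosome structure (median -1.13) Mki67, which coats mitotic chromosomes and is the proliferation marker Ki-67, stood at 158, 168 and 171 against 61.5, 64.0 and 57.4 CPM (-1.44 ± 0.070, edgeR adjusted p = 1.2e-13). The condensin subunit Smc4 had the smallest fall in that role (-0.64 ± 0.053). The 5 checkpoint genes ranged from Ttk (-1.52 ± 0.13) to Bub3. Bub1b, the kinase-like checkpoint protein BUBR1, went from 25.7, 25.5 and 26.6 to 10.8, 8.98 and 10.5 CPM (-1.36 ± 0.082). Bub3, which also serves outside mitosis, stood at 81.5, 81.4 and 81.2 CPM without and at 71.4, 75.1 and 78.3 CPM with TGF-β (-0.12 ± 0.047, edgeR adjusted p = 0.041). The Bub3 groups did not overlap, but its call was lost in 10 of the alternative settings, which is most of them, with adjusted p up to 0.19.

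Reads of genes that overlap on opposite strands cannot be told apart here, since the labels do not state the strand used in counting. Exons of 14 of the 44 overlap those of another gene in GENCODE M21, by 1271 bases for Kif20a with Cdc23, 944 for Ncapg with Lcorl, 911 for Prc1 with Rccd1, 832 for Kif4 with Pdzd11 and 510 for Ccna2 with Exosc9. The values of these 5 genes are uncertain to that extent. The other 9 overlaps are 232 bases or shorter, or lie with genes of almost no counts, such as the 623 bases of Cdc25c with Gm3550 (a mean of 1.0 counts) and the 592 of Ube2c with Tnnc2 (0.7 counts). A scaling by library totals alone, without TMM, moved the median of all genes in this comparison to -0.12 and the share of higher among called genes from 48.6% to 33.3%, and all 44 mitotic genes were still called lower.

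**Figure D2:**
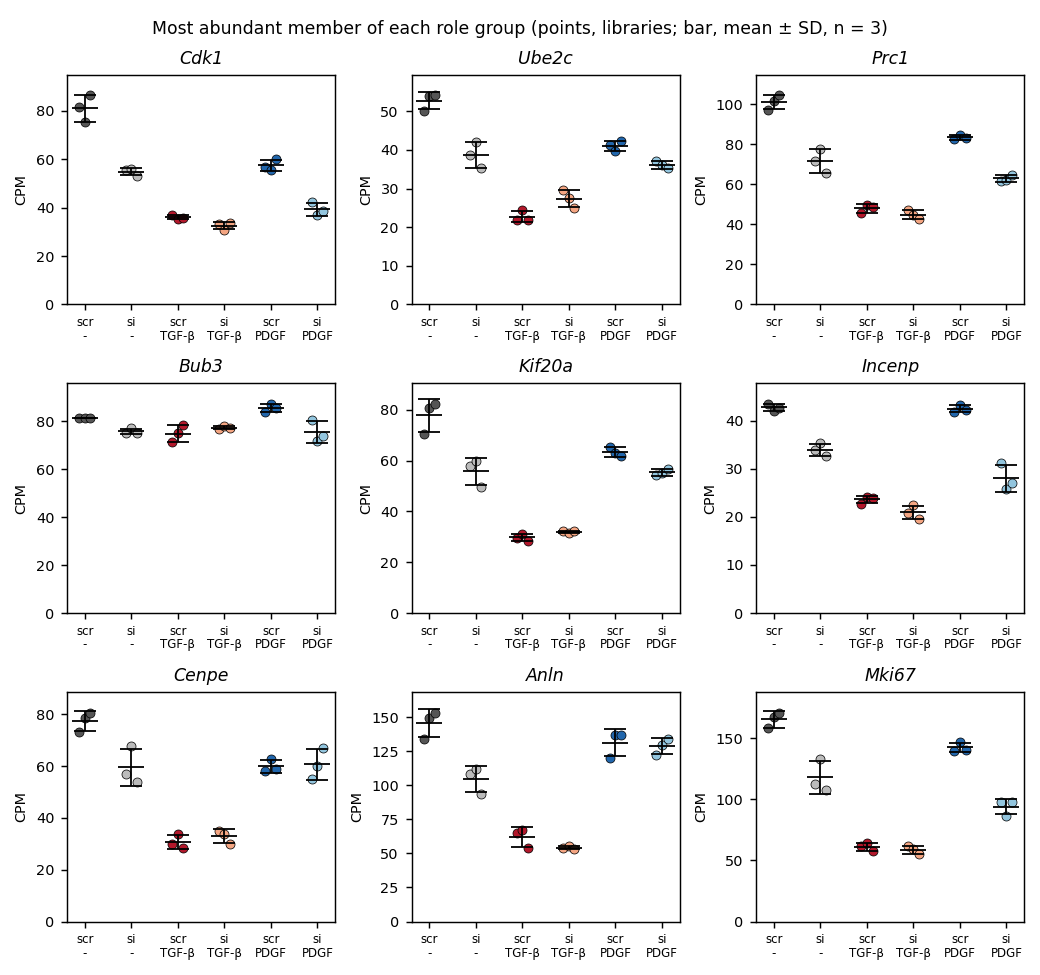
CPM (vertical axis, from 0) of the most abundant gene of each role in the 6 groups (horizontal axis, scr for scramble, si for Itgav siRNA, a dash for unstimulated). Points are libraries and bars are mean ± SD (n = 3). In 8 of the 9 genes both TGF-β means lie below those of all other groups, while Bub3 stays between 71.4 and 87.3 CPM.

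PDGF-BB gave a smaller change in scramble cells. Of the 44 genes 32 were lower, none was higher and 12 did not pass, in a comparison in which 36.1% of all genes were called and 19.2% called lower. The median log2 fold change was -0.28 (82.0% of the unstimulated mean), and the range ran from -0.51 for Kif20b to 0.07 for Bub3. In 34 genes all PDGF-BB libraries lay below all unstimulated ones, as in 22.8% of all genes, and in 1 they lay above. Cdk1 stood at 56.8, 55.6 and 60.0 CPM with PDGF-BB, below its 75.3 to 86.4 CPM without (-0.50 ± 0.057, edgeR adjusted p = 4.1e-07). Ccna2, the cyclin of S phase and G2, went from 66.2, 63.5 and 65.7 to 48.5, 47.8 and 51.0 CPM (-0.41 ± 0.062), and Mad2l1, which inhibits CDC20 at unattached kinetochores, from 59.0, 60.1 and 58.0 to 38.5, 41.9 and 45.5 CPM (-0.49 ± 0.076). None of these 3 genes overlapped between the groups.

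Cyclin B2, Cdc25b and Cdc25c of mitotic entry did not pass (-0.18 ± 0.084, 0.03 ± 0.10 and -0.24 ± 0.13), nor did Aurka, Bub3, Ttk, Kif4, Kif15, Birc5, Incenp, Anln and Ncapg. Incenp held 41.9, 43.3 and 42.4 CPM with PDGF-BB against 43.5, 42.2 and 42.8 without, and the groups overlapped. All 5 kinetochore genes and both exit genes fell. Kif20b, a motor of cytokinesis, stood at 13.9, 24.4 and 20.4 CPM with PDGF-BB against 25.2, 28.7 and 30.0 CPM without, and its fall rested in part on the first PDGF-BB library (-0.51 ± 0.12 with it and -0.32 without, edgeR adjusted p = 0.0025 and 0.011). Between 25 and 31 genes were called when 1 library was left out. The share of higher among all called genes was 46.8%, and 57.4% under library totals alone, where 25 of the 44 were called.

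The Itgav siRNA comparisons asked how the siRNA changed these genes in each medium. Loss of integrin αV and any other action of the siRNA cannot be told apart in them. Without stimulus 35 of the 44 fell, 1 rose and 8 did not pass, where 53.4% of all genes were called, 27.5% lower and 25.9% higher. The median was -0.48, or 71.8% of the scramble mean. In 36 genes all siRNA libraries lay below all scramble ones (31.3% of all genes, 61.4% in either direction) and in 1 above. Mad2l1 fell most, from 59.0, 60.1 and 58.0 to 31.1, 30.5 and 26.1 CPM (-1.01 ± 0.078, edgeR adjusted p = 3.6e-10), and was the only one of the 44 to pass 2-fold. Cdk1 went from 81.8, 75.3 and 86.4 to 55.4, 56.1 and 53.3 CPM (-0.56 ± 0.057), and Prc1 from 97.3, 101 and 104 to 71.6, 77.4 and 65.7 CPM (-0.50 ± 0.054). The passenger complex fell in all 4 genes (median -0.54) and mitotic entry in 6 of 7.

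The gene that rose was Cdc25b, a phosphatase that activates CDK1 at the centrosome, at 18.5, 19.6 and 15.2 CPM against 14, 14.9 and 14.5 CPM (0.30 ± 0.10, edgeR adjusted p = 0.017). Its groups did not overlap, but the call was lost when the first scramble or the first or second siRNA library was left out (adjusted p up to 0.11). The 8 that did not pass were Aurka, Bub3, Kif11, Kif20b, Kif4, Cenpf, Ndc80 and Ncapg. Kif20a, with -0.48 ± 0.065, shares 1271 exon bases with Cdc23, an APC/C subunit that itself fell by 1.65 on the log2 scale in these libraries, and the part of Cdc23 reads in the Kif20a value was not tested.

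With PDGF-BB the siRNA lowered 32 of the 44 genes and raised 2, and 10 did not pass, where 59.3% of all genes were called, 29.9% lower and 29.4% higher. The median was -0.35. In 34 genes the siRNA libraries all lay below the scramble ones (30.8% of all genes) and in 2, Cdc25b and Hmmr, above (31.2%). Kif23, the motor of the centralspindlin complex that positions the division ring, fell most, from 27.9, 25 and 24.8 to 13.4, 12.8 and 16.2 CPM (-0.87 ± 0.094, edgeR adjusted p = 5.7e-08). Incenp went from 41.9, 43.3 and 42.4 to 31.2, 25.8 and 27.1 CPM (-0.60 ± 0.065), and Cdk1 from 56.8, 55.6 and 60.0 to 42.3, 37.1 and 38.5 CPM (-0.55 ± 0.060). All 5 checkpoint genes and all 4 passenger complex genes fell. Cdc25b rose from 15.6, 13.9 and 14.7 to 19.9, 19.7 and 21.1 CPM (0.46 ± 0.10, edgeR adjusted p = 0.00048). Kif20b was the other gene called higher, at 26.2, 24.2 and 25 CPM against 13.9, 24.4 and 20.4 CPM (0.36 ± 0.13, edgeR adjusted p = 0.017). Its groups overlapped, and without the first scramble PDGF-BB library the change was 0.17 (edgeR adjusted p = 0.13).

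With TGF-β the siRNA raised 6 of the 44 genes and lowered 6, and 32 did not pass, where 48.4% of all genes were called, 24.1% higher and 24.3% lower. The share of the mitotic genes called was thus below that of all genes. Their median was 0.02, and their range ran from -0.40 for Aurkb to 0.92 for Cdc25b. The siRNA libraries lay above the scramble ones in 9 genes and below in 8 and overlapped in 27, while 28.1% of all genes lay above and 27.5% below. Cdc25b held 9.78, 11.9 and 12.5 CPM with the siRNA against 5.51, 5.54 and 7.06 CPM with scramble (0.92 ± 0.12, edgeR adjusted p = 1.6e-06). Hmmr, a microtubule-associated hyaluronan receptor, held 31.4, 32.8 and 31.2 against 25.7, 23.4 and 22.1 CPM (0.42 ± 0.081, edgeR adjusted p = 0.00017), and Aurka 16.5, 18.8 and 18 against 12.7, 11.9 and 13.2 CPM (0.49 ± 0.10, edgeR adjusted p = 0.00045). The groups of these 3 genes did not overlap.

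Ube2c (0.27 ± 0.074), Kif4 (0.37 ± 0.11) and Ttk (0.37 ± 0.14) were the other genes called higher. The 6 called lower were Ccna2 (-0.24 ± 0.071), Foxm1 (-0.28 ± 0.091), Aurkb (-0.40 ± 0.15), Incenp (-0.17 ± 0.072), Ect2 (-0.31 ± 0.11), an activator of RhoA at the division site, and Smc4 (-0.17 ± 0.055). Ccna2 held 23.7, 26.1 and 24.7 CPM with the siRNA against 29.0, 29.7 and 29.3 with scramble. Of these 12 calls, 5 held in every alternative setting and 7 were lost in at least 1, among them Ttk in 6 settings and Incenp in most settings (10).

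**Figure D3:**
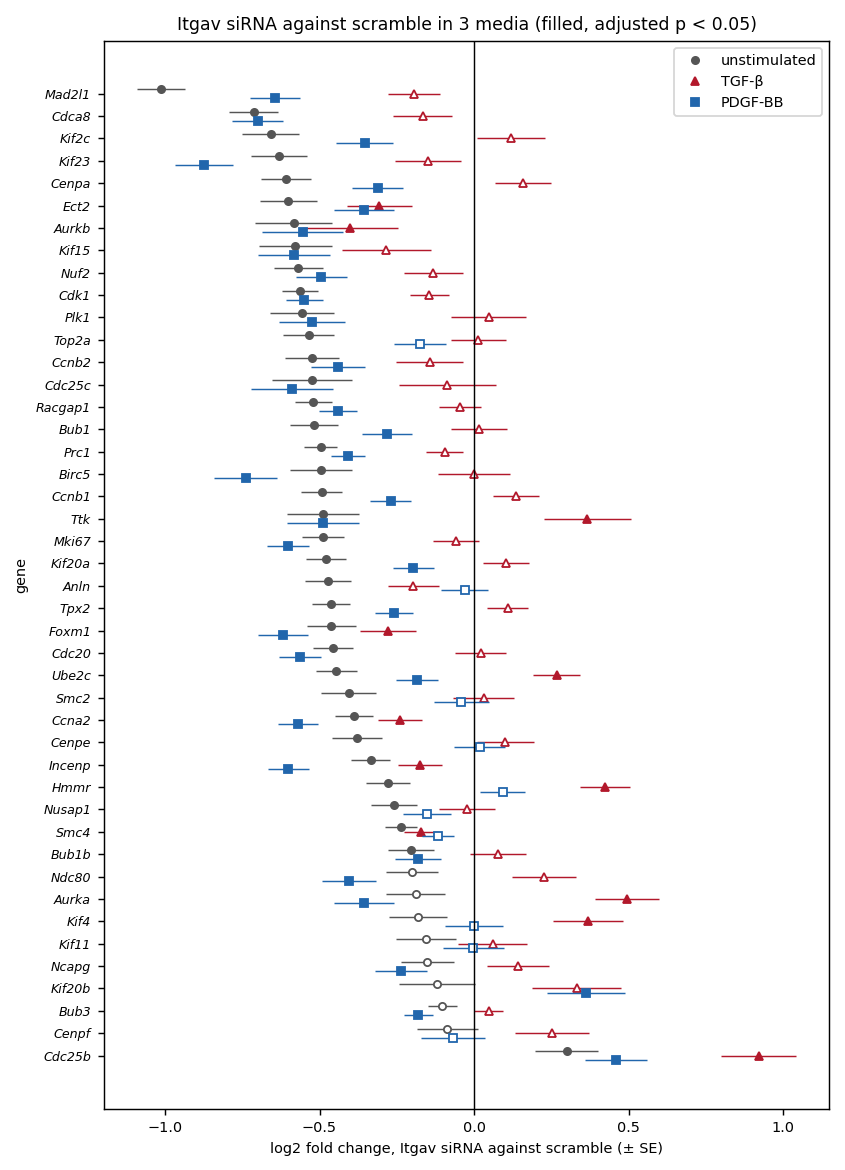
Log2 fold change of Itgav siRNA against scramble (horizontal axis, ± SE) for each of the 44 genes (vertical axis), without stimulus (circles), with TGF-β (triangles) and with PDGF-BB (squares), filled where the edgeR adjusted p was under 0.05. Most circles and squares lie left of 0, the triangles lie on both sides of it, and Cdc25b at the bottom is right of 0 in all 3 media.

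The difference between media was tested as an interaction term in the same fit. Between TGF-β and unstimulated cells the siRNA effect differed in 27 of the 44 genes, always toward a higher value with TGF-β, while 23.2% of all genes were called, 12.2% in that direction. The other 17 did not pass, although the estimates of all 44 were above 0, with a median of 0.44 and a range from 0.07 for Smc4 to 0.86 for Ttk. The difference equals that between the TGF-β response with and without the siRNA, so both readings rest on the same 12 libraries. Ube2c had the smallest p: its siRNA libraries held 38.6, 41.9 and 35.4 CPM without and 29.5, 27.6 and 25 CPM with TGF-β, and its scramble libraries 50.1, 53.8 and 54.1 without and 21.9, 24.4 and 21.8 CPM with it (difference 0.71 ± 0.10, edgeR adjusted p = 1.4e-05). The siRNA value was therefore the lower without stimulus and the higher with TGF-β.

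Mad2l1 (0.82 ± 0.12, edgeR adjusted p = 1.5e-05) held 32.7, 29.8 and 27.1 CPM in scramble and 25.8, 24.2 and 28.3 CPM in siRNA libraries with TGF-β. Its siRNA libraries without stimulus, at 31.1, 30.5 and 26.1 CPM, overlapped with both. For Hmmr (0.70 ± 0.11, edgeR adjusted p = 4.5e-05) the siRNA libraries lay at 53.5, 58.0 and 45.5 CPM without stimulus, below the 58.5, 64.9 and 66.9 CPM of scramble, and above scramble with TGF-β. By role the difference passed in 4 of 5 kinetochore genes, 4 of 7 kinesins, 3 of 7 entry genes, both exit genes, 5 of 6 spindle genes, 3 of 5 checkpoint genes, 2 of 4 passenger complex genes, 1 of 3 cytokinesis genes and 3 of 5 genes of chromosome structure.

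In siRNA cells TGF-β lowered 41 of the 44 genes and raised none, where 57.5% of all genes were called and 29.6% lower, with a median of -0.78 (-0.02 over all genes). The 3 that did not pass were Bub3 (0.03 ± 0.047), Mad2l1 (-0.16 ± 0.084) and Aurka (-0.19 ± 0.099). The TGF-β libraries lay below the unstimulated ones in 41 genes, against 33.4% of all genes. Cdc20 fell from 39.0, 41.0 and 34.0 to 16.3, 15.0 and 15.9 CPM (-1.27 ± 0.074, edgeR adjusted p = 1.5e-12). Nusap1, which binds spindle microtubules near chromosomes, fell from 32.6, 37.1 and 32.8 to 15.5, 13.8 and 13.4 CPM (-1.27 ± 0.083), and Ccna2 from 50.3, 54.1 and 44.8 to 23.7, 26.1 and 24.7 CPM (edgeR adjusted p = 2.1e-11). Of the 44 genes 8 fell at least 2-fold, against 39 in scramble cells. As a share of the scramble unstimulated mean the median gene stood at 43.1% in siRNA TGF-β cells and at 41.6% in scramble TGF-β cells. Under library totals alone the share of higher among all called genes was 33.2% instead of 48.6%, the all-gene median was -0.17, and all 44 mitotic genes were called.

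**Figure D4:**
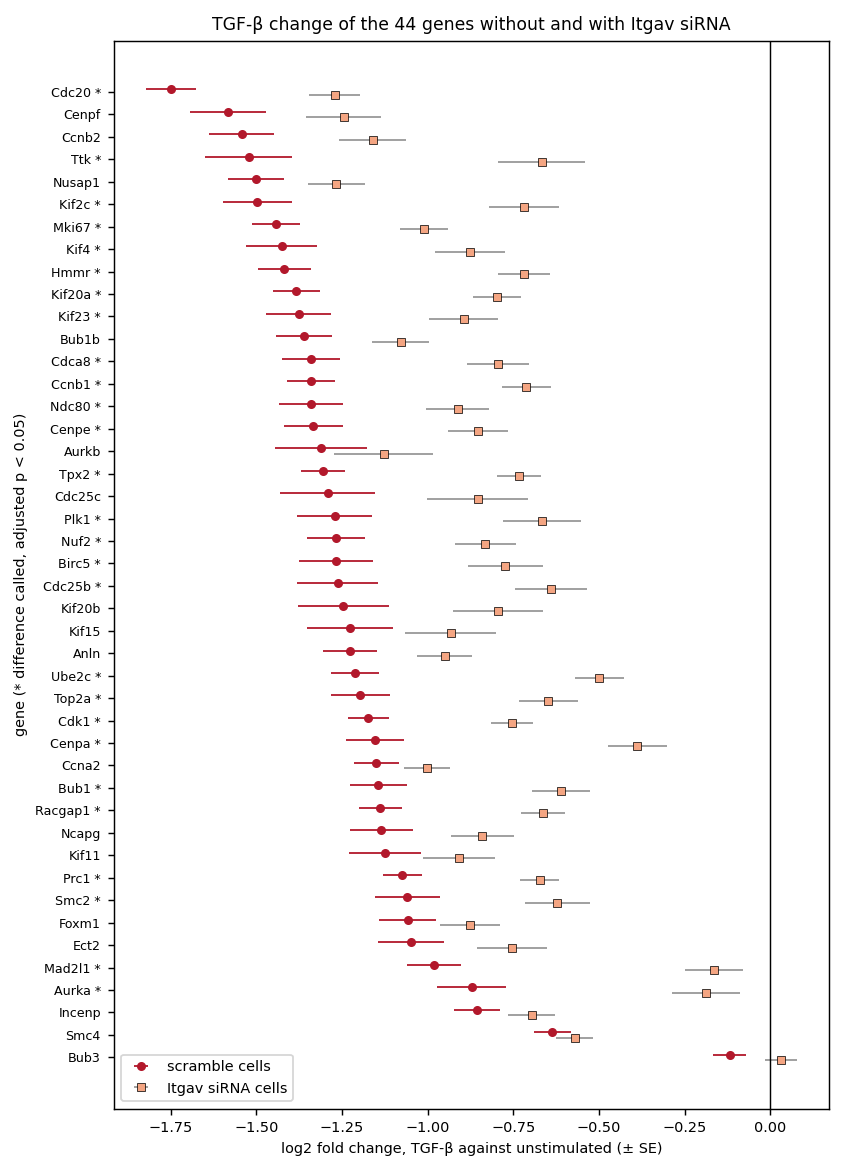
Log2 fold change of TGF-β against unstimulated (horizontal axis, ± SE) in scramble cells (circles) and Itgav siRNA cells (squares) for each of the 44 genes (vertical axis), with a star on the 27 genes whose difference was called. Every square lies to the right of its circle, and Cdc20 is the leftmost gene in both arms.

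PDGF-BB in siRNA cells lowered 19 of the 44 genes, raised 1 and left 24 not passing, where 36.4% of all genes were called, 19.2% lower and 17.2% higher. The median was -0.17. Ccna2 fell from 50.3, 54.1 and 44.8 to 35.0, 30.4 and 34.0 CPM (-0.59 ± 0.065, edgeR adjusted p = 2.1e-07), Cdk1 to 42.3, 37.1 and 38.5 CPM (-0.48 ± 0.060) and Kif23 from 19.4, 23.1 and 20 to 13.4, 12.8 and 16.2 CPM (-0.56 ± 0.096). The gene that rose was Anln, from 109, 112 and 93.8 to 122, 130 and 134 CPM (0.30 ± 0.076, edgeR adjusted p = 0.0038). In 18 genes the PDGF-BB libraries lay below the unstimulated ones (25.5% of all genes), in 2 above (22.7%, and 48.2% in either direction), and in 24 they overlapped. The count of called genes was 13 without the second siRNA unstimulated library and 22 without replicate 3 of that group. As a share of the scramble unstimulated mean the median gene stood at 65.3% in siRNA PDGF-BB cells.

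The siRNA effect differed between PDGF-BB and unstimulated cells in 8 of the 44 genes, 7 higher and 1 lower with PDGF-BB, where 18.8% of all genes were called, 9.51% higher and 9.32% lower. This is close to the share among all genes. Anln had the smallest p (0.44 ± 0.11, edgeR adjusted p = 0.0060): its siRNA libraries held 122, 130 and 134 CPM with PDGF-BB against 120, 137 and 137 CPM in scramble, while without stimulus they lay below scramble. Hmmr (0.37 ± 0.10, edgeR adjusted p = 0.014) and Cenpe (0.40 ± 0.12, edgeR adjusted p = 0.019) followed, with Cenpe at 55.1, 60.0 and 66.9 CPM against 58.1, 62.7 and 58.9 CPM with PDGF-BB, where the groups overlapped. Incenp was the gene called lower (-0.27 ± 0.091, edgeR adjusted p = 0.046), a call lost in 12 of its 19 alternatives. The count was 2 without the third siRNA PDGF-BB library, 3 without scramble unstimulated replicate 2 or 3 or the third siRNA unstimulated library, 4 without the first scramble PDGF-BB or the first siRNA unstimulated library, 5 without the second siRNA PDGF-BB library and 9 without the first scramble unstimulated one.

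Other genes of the cycle were set beside the 44 from lists made for this work. Of 63 other mitotic genes, TGF-β in scramble cells lowered 62 and raised none (median -1.20), Pttg1, the securin gene, being the one that did not pass. Ckap2 (-1.39 ± 0.065), Arhgap11a (-1.31 ± 0.064) and Spc25, a subunit of the kinetochore complex of Ndc80 (-1.43 ± 0.072), had the smallest p. Of 35 genes of DNA replication and G1/S, 32 fell and 3 did not pass (median -1.04), with Rrm1 (-0.78 ± 0.037), Mcm7 (-1.27 ± 0.073) and Mcm5 (-1.35 ± 0.079) leading by p. The 14 core subunits of the APC/C gave 4 higher, 4 lower and 6 not passing (median 0.04), led by Anapc13 (-0.50 ± 0.064), Anapc4 (0.28 ± 0.039) and Cdc16 (0.39 on the log2 scale). In this comparison 23.4% of all genes were called higher and 24.8% lower.

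PDGF-BB in scramble cells lowered 38 of the 63 other mitotic genes and raised 2 (median -0.29), but called 4 of the 35 replication genes, all lower (median -0.03). Over all genes 19.2% were called lower and 16.9% higher. The difference between these lists was not tested. Itgav siRNA without stimulus lowered 40 and raised 2 of the other mitotic genes (median -0.33) and lowered 21 and raised 1 of the replication genes (median -0.29). Among all genes 27.5% were called lower and 25.9% higher there. With TGF-β the siRNA raised 13 and lowered 13 of the other mitotic genes (median 0.10) and raised 12 and lowered 4 of the replication genes (median 0.13). In neither list was the share called above the 48.4% of all genes (24.1% higher, 24.3% lower). With PDGF-BB the siRNA lowered 31 and raised 4 of the other mitotic genes, and lowered 25 and raised 2 of the replication genes. The shares of all genes were 29.9% lower and 29.4% higher. In siRNA cells TGF-β lowered 57 of the 63 and 29 of the 35, raising 3 of the latter, and PDGF-BB lowered 22 and 10 and raised 2 and 1. TGF-β lowered 29.6% and raised 27.9% of all genes in these cells, and PDGF-BB lowered 19.2% and raised 17.2%. The siRNA effect was higher with TGF-β than without stimulus in 28 of the 63 (lower in 2) and in 22 of the 35. For all genes the shares were 12.2% higher and 11% lower.

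Of the 10 CDK inhibitors and WEE1-family kinases, TGF-β in scramble cells raised Cdkn2b, the gene of the inhibitor p15 of CDK4 and CDK6 (0.63, edgeR adjusted p = 1.6e-08). It lowered Cdkn3 (-1.68), Cdkn1c (-1.39), Pkmyt1 (-0.98), Cdkn2d (-0.83), Cdkn2c (-0.72) and Wee1 (-0.39), and Cdkn1a (-0.05), Cdkn1b (-0.09) and Cdkn2a (0.03) did not pass. With Itgav siRNA, 3 of these genes were called in all 3 media. In the order unstimulated, TGF-β and PDGF-BB, Cdkn2d changed by -0.55, -0.41 and -0.60, Cdkn1a, the gene of p21, by -0.16, -0.33 and -0.13, and Cdkn1b, the gene of p27, in the other direction by 0.16, 0.13 and 0.23. The rise of Cdkn2b was not particular to TGF-β. PDGF-BB raised it by 0.40 in scramble cells and by 0.46 in siRNA cells (edgeR adjusted p = 2.2e-05 and 3.7e-06). Of 18 E2F, pocket protein and MuvB genes, a list that also holds Trp53, TGF-β in scramble cells lowered 11 and raised 1. For all genes the shares were 24.8% lower and 23.4% higher. E2f6 (-0.46 ± 0.054), Rbl2 (-0.42 ± 0.057) and the MuvB subunit Lin52 (-0.50 ± 0.071) had the smallest p.

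**Figure D5:**
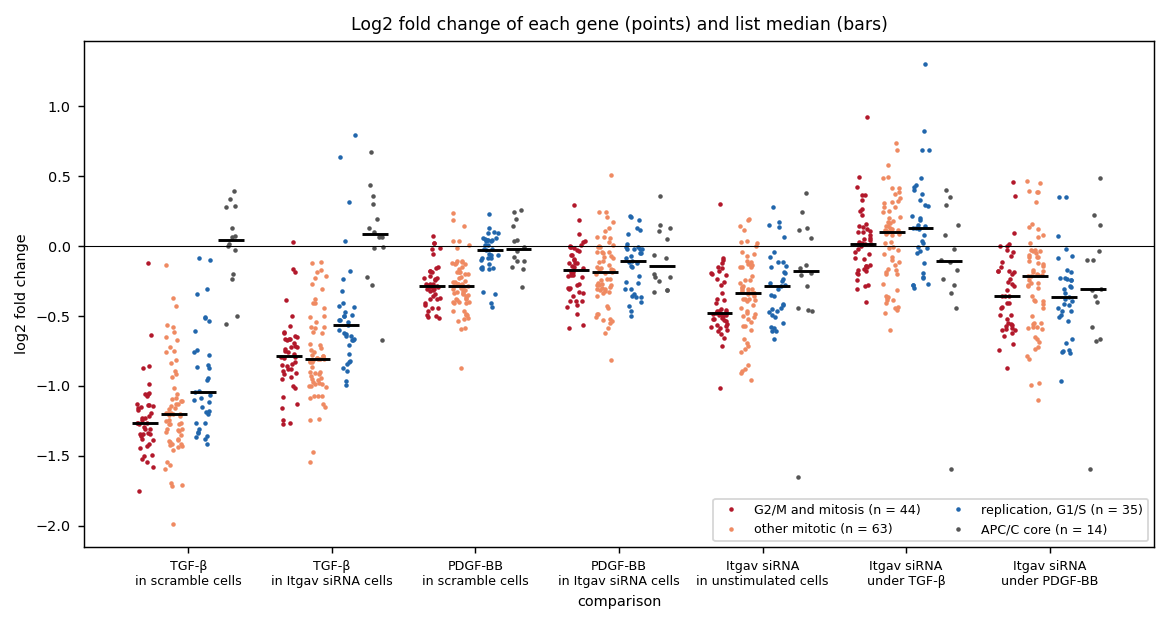
Log2 fold change (vertical axis) of each gene (points) in 7 comparisons (horizontal axis) for the 44 genes and 3 other lists, with list medians as bars. The mitotic and replication lists lie far below 0 with TGF-β in both arms while the APC/C core subunits lie on both sides of it, and with PDGF-BB in scramble cells the replication median is -0.03 and that of the 44 genes -0.28.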

How the data were processed

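The submitters' processing notes name HISAT2 2.2.1, StringTie 2.1.6 and mm10. The authors deposited estimated counts for 57180 genes in 18 libraries, which were rounded to whole numbers (76.2% of values above 0 already were). The deposited transcript table was not used. All 18 libraries were fitted together in edgeR 4.0.16 (R 4.3.3, limma 3.58.1) (TMM normalisation, quasi-likelihood tests, 12 residual degrees of freedom). The low-count filter was filterByExpr at a minimum count of 10. P-values were adjusted by Benjamini-Hochberg over all 15832 genes within a comparison, and the SE is the log2 fold change over the root of the F statistic. The fit was tested on simulated data.

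The 44 genes, the other lists, the comparisons and the rule for named genes were chosen with earlier results of these data known. That rule accounts for all 44 by role. It gives values per library for the most abundant gene of each role, the 3 genes with the smallest p in each comparison and up to 3 called in the smaller direction. From other lists it gives the 3 called genes with the smallest p with TGF-β in scramble cells and all called CDK inhibitors. The values of Kif20b and Cdc23, the genes at the ends of a range and the CDK inhibitors named under the siRNA or PDGF-BB were added after they were seen. A list of 64 other mitotic genes matched 63. The alternatives were DESeq2 1.42.0, its size factors in edgeR, library totals alone, a replicate block, other low-count filters (none, or 1 CPM on average), fitting just the compared groups, and dropping each library in turn. Promoter windows are those of RefSeq, GRCm38.p6.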

Additional observations from a re-analysis of the deposited data

Results flagged for a closer look

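The effect of Itgav siRNA differed between TGF-β and unstimulated cells, by an interaction term in edgeR, in 27 of the 44 genes. Of all genes tested 23.2% were called, and 24 of the 27 calls held in every alternative setting. On the log2 scale the differences, each toward a higher value with TGF-β, were 0.42 for Cdk1, 0.63 for Ccnb1 and 0.62 for Cdc25b in mitotic entry, and 0.48 for Cdc20 and 0.71 for Ube2c in mitotic exit. In spindle assembly they were 0.60 for Plk1, 0.68 for Aurka, 0.57 for Tpx2, 0.40 for Prc1 and 0.70 for Hmmr. In the checkpoint they were 0.53 for Bub1, 0.82 for Mad2l1 and 0.86 for Ttk, the highest of the 27. The kinesins gave 0.58 for Kif20a, 0.48 for Kif23, 0.78 for Kif2c and 0.55 for Kif4, and the passenger complex 0.49 for Birc5 and 0.55 for Cdca8. Kinetochore genes gave 0.77 for Cenpa, 0.48 for Cenpe, 0.43 for Ndc80 and 0.44 for Nuf2. Racgap1 of cytokinesis gave 0.47, and Mki67, Top2a and Smc2 of chromosome structure gave 0.43, 0.55 and 0.44.

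Between PDGF-BB and unstimulated cells the siRNA effect differed by the same kind of test in 8 of the 44 genes. This is close to the share among all genes, of which 18.8% were called. Of the 8 calls, 2 held in every alternative setting. The differences were 0.37 for Hmmr, 0.37 for Mad2l1, 0.28 for Kif20a, 0.40 for Cenpe, 0.44 for Anln, 0.36 for Top2a and 0.37 for Smc2, all toward a higher value with PDGF-BB, and -0.27 for Incenp toward a lower one.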

How the results depend on the processing

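Of 254 calls of the 44 genes over the 9 comparisons, 212 held in every alternative, 42 were lost in at least 1, and none changed direction. With 1 library left out, the count of called genes was 43 to 44 for TGF-β in scramble cells, 25 to 31 for PDGF-BB in scramble cells, and 35 to 38, 9 to 11 and 31 to 33 for the siRNA without stimulus, with TGF-β and with PDGF-BB. In siRNA cells it was 41 to 43 for TGF-β and 13 to 22 for PDGF-BB, and for the differences 24 to 29 with TGF-β and 2 to 9 with PDGF-BB. A fit of only the groups compared called 5 genes in that last difference instead of 8, and the cause was not tested.

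The labels do not say whether replicate numbers pair the libraries. The correlation of deviations was -0.088 to 0.097 over 45 same-numbered pairs and -0.104 to 0.096 over 90 pairs of different numbers. Of 18 libraries, 8 correlated best with a library of their own number. Low correlations cannot show whether same-numbered libraries were prepared together. With a replicate block the counts were 44 with TGF-β and 32 with PDGF-BB in scramble cells, 37, 14 and 34 for the siRNA in the 3 media, 41 and 21 for the stimuli in siRNA cells, and 27 and 10 for the differences.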

Other observations

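The genes named here were picked after their values were seen. Cdc23, a subunit of the APC/C, fell with Itgav siRNA in all 3 media, with log2 fold changes of -1.65 ± 0.060 without stimulus, -1.59 ± 0.060 with TGF-β and -1.59 ± 0.060 with PDGF-BB, while with TGF-β in scramble cells it was at 0.00 ± 0.054. No other core subunit reached -1 in these comparisons, and the next lowest were Anapc2 at -0.68 and Anapc15 at -0.67 with PDGF-BB. E2f5, which pairs with pocket proteins to repress cycle genes, was lower with the siRNA by -1.46 ± 0.086, -1.20 ± 0.088 and -1.14 ± 0.088 in the same order of media. Rb1, the retinoblastoma gene, was lower by -0.79 ± 0.059, -0.71 ± 0.059 and -0.35 ± 0.059. All of these were called by edgeR's test, with adjusted p of at most 2.6e-05, apart from Cdc23 with TGF-β in scramble cells.

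The first scramble PDGF-BB library held Kif20b at 13.9 CPM against 24.4 and 20.4 in the other PDGF-BB libraries. Without it the PDGF-BB fall of Smc2 in scramble cells was -0.17 (edgeR adjusted p = 0.12) instead of -0.28 (edgeR adjusted p = 0.016).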
